A study of Mus musculus with 12 samples.

Results

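The genes of the EGF receptor (ErbB) family and its ligands were examined in RNA-Seq of mouse abdominal aorta. The 10 members were chosen by gene symbol among the 55092 features of the expression table, and 10 of 10 were found. They are the receptors Egfr, Erbb2, Erbb3 and Erbb4 and the ligands Hbegf, Btc, Tgfa, Ereg, Areg and Nrg1. ErbB receptors are transmembrane tyrosine kinases that pair with each other once a ligand binds and signal through the Ras-MAPK and PI3K-Akt pathways. Their ligands are made as membrane-anchored precursors, which metalloproteases of the ADAM family cut free. In vessels, transactivation of EGFR by shed HB-EGF, the product of Hbegf, is known as a route by which angiotensin II acts on smooth muscle cells (SMCs).

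The 12 libraries came from abdominal aortas of male mice, 3 in each of 4 groups, 1 mouse per library. CFS were CCN2fl/fl mice infused with saline, CSS were CCN2SMC∆ mice infused with saline, CFA were CCN2fl/fl mice infused with Ang II and CSA were CCN2SMC∆ mice infused with Ang II. CCN2SMC∆ mice carried floxed Ccn2 and a tamoxifen-inducible Cre-ERT2 driven by the promoter of Myh11, a gene of SMCs. CCN2fl/fl mice carried the floxed alleles without Cre. Both genotypes received 5 doses of tamoxifen at 8 weeks of age, a washout of 2 weeks, and then osmotic pumps for 7 days, with Ang II given at 500 ng/kg/min. No group without tamoxifen or with Cre and unfloxed Ccn2 was analysed here, so Cre activity itself and loss of Ccn2 cannot be told apart. The study reported infrarenal aortic aneurysms in nearly all mice with the genotype and treatment of CSA. Only a few mice with those of CFA had aneurysms, which were mild and at other sites. The state of each sequenced aorta is not given. The part of aneurysm in the differences between CSA and CFA was not tested.

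Depth ranged from 14558580 fragments in CSA mouse 03 to 23107807 in CFA mouse 71. Ccn2, the targeted gene, was 766 ± 318 FPKM (fragments scaled to gene length and library size; SD, n = 3) in CFS, 554 ± 106 in CSS, 894 ± 290 in CFA and 328 ± 71.9 in CSA. The groups of the 2 genotypes overlapped under saline and did not overlap under Ang II, and the value covers the whole gene in all cell types of the tissue. The 8 SMC markers examined, among them Myh11 and Acta2, were present in every library. Their summed level was 8124 to 10216 FPKM in CFS, 7676 to 8679 in CSS, 5466 to 8323 in CFA and 793 to 938 in CSA, and 8 of 8 were lower in CSA than in CFA. In bulk tissue, fewer cells of a type and less RNA per cell cannot be told apart. Transcripts of skeletal muscle were high in CFS mouse 68 and CSS mouse 55, and the counts of differentially expressed members below were the same without both libraries, although Ereg no longer had an adjusted p under 0.05 in CSA against CFA.

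Between the genotypes under Ang II, the family moved in both directions. Btc, Tgfa and Erbb4 were differentially expressed and lower in CSA than in CFA. Hbegf was also lower by its adjusted p, without reaching the fold limit, and Egfr and Ereg were higher by their adjusted p alone. Under saline, no tested member differed between the genotypes at an adjusted p under 0.05, and Ang II alone changed none in CCN2fl/fl mice by that test. The plot of levels by mouse shows all 10 genes.

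**Figure D1:**
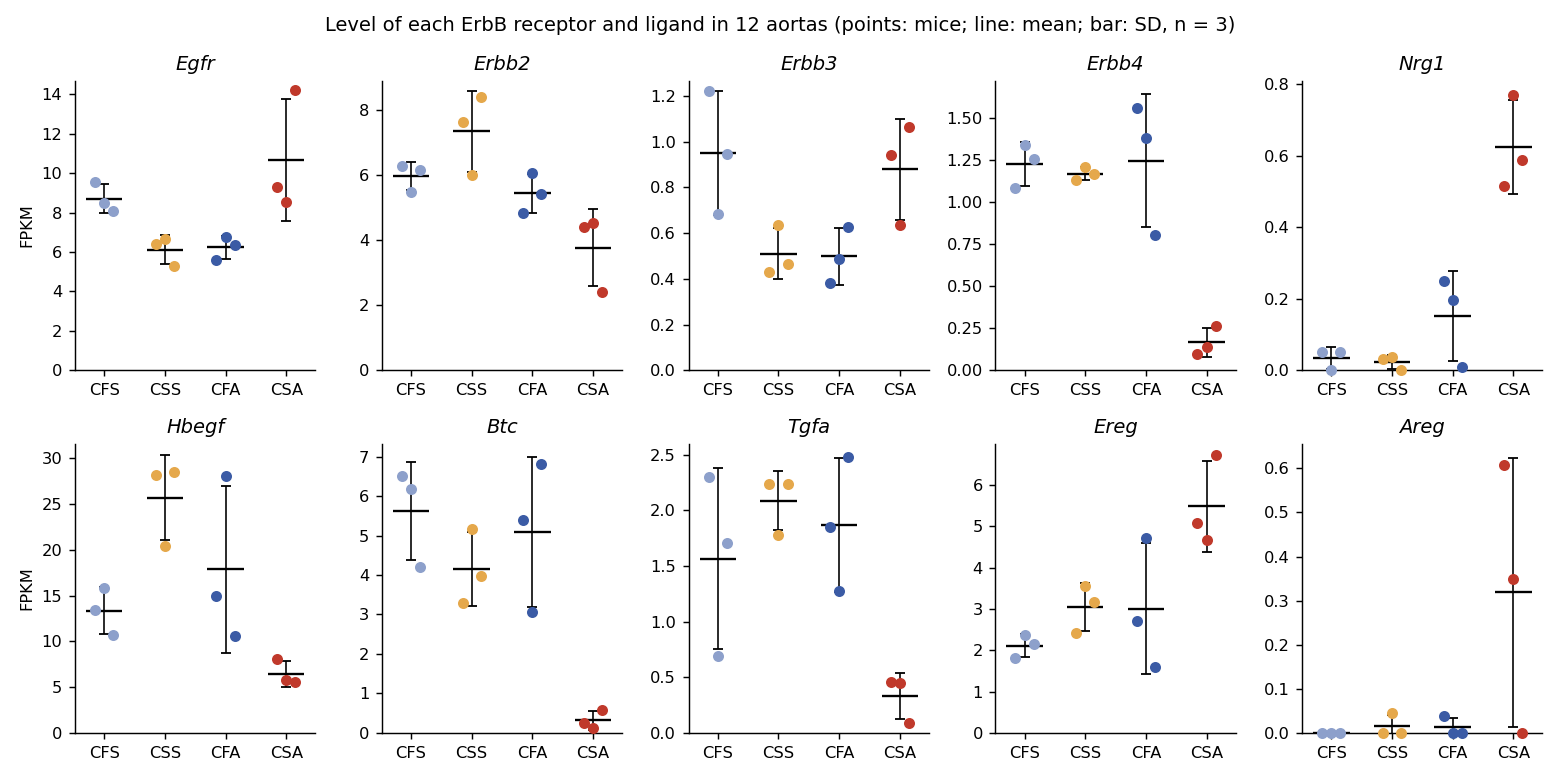
Level of each receptor and ligand in FPKM on a linear axis that starts at 0, with 1 panel per gene. Points are the 3 mice of each group (CFS, CSS, CFA, CSA), lines the group means and bars the SD; the 3 CSA mice lie below every other mouse for Btc, Tgfa, Erbb4 and Hbegf.

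For testing, values were taken as log2(FPKM + 0.1) and compared with limma over all 12 libraries, with p-values adjusted by the Benjamini-Hochberg method over 14676 genes that reached 1 FPKM in at least 3 libraries. A gene was called differentially expressed at an adjusted p under 0.05 with a log2 fold change above 1.5 in size, the limits the study used. Of the 10 members, 7 were tested, and Erbb3, Nrg1 and Areg were below the filter. Btc, Tgfa and Erbb4 passed it through their levels outside CSA. In CSA against CFA, 3 members were differentially expressed, beside 17.2% of all tested genes, and 6 had an adjusted p under 0.05, beside 40.7% of all tested genes. Of these 6, 2 were higher and 4 lower. Both genotype comparisons and both Ang II comparisons reuse the same groups of mice, so their values are given side by side.

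Egfr, the receptor that binds EGF, TGF-α and most ligands examined here, was measured at 9.53, 8.47 and 8.10 FPKM in the CFS mice, 6.41, 6.65 and 5.28 in CSS, 5.57, 6.76 and 6.36 in CFA, and 9.29, 8.54 and 14.2 in CSA. Every CSA mouse was above every CFA and CSS mouse, while the CFS mice lay at the level of the lower CSA mice. The group means were 8.70 ± 0.742 FPKM (SD, n = 3) in CFS, 6.11 ± 0.729 in CSS, 6.23 ± 0.605 in CFA and 10.7 ± 3.09 in CSA. Under Ang II, Egfr was 1.72-fold higher in CSA than in CFA by group means, with a log2 fold change of 0.74 (SE 0.19, adjusted p = 0.00873 by limma). Under saline the log2 difference between genotypes was -0.51 (95% interval -0.92 to -0.09) with an unadjusted p of 0.0207 and an adjusted p of 0.661 by limma. The difference between these 2 genotype effects, the interaction, was 1.24 on the log2 scale (SE 0.26, adjusted p = 0.00559 by limma). The rise was not of a size that reached the fold limit, and with only the CFA and CSA libraries in the fit its adjusted p was 0.0562. Part of its size came from CSA mouse 03, the shallowest library. Without that mouse the log2 fold change was 0.51, with an adjusted p of 0.00801 by limma.

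Erbb2, the receptor with no ligand of its own that serves as partner of the others, was measured at 6.29, 5.50 and 6.18 FPKM in CFS, 7.64, 5.996 and 8.42 in CSS, 4.84, 6.06 and 5.43 in CFA, and 4.40, 4.53 and 2.40 in CSA. The CSA mice were the 3 lowest, and CSA mouse 03, which was highest for Egfr, was lowest for Erbb2. In CSA against CFA its log2 fold change was -0.56 (95% interval -1.07 to -0.06, adjusted p = 0.0706 by limma), which missed the threshold. The value depended on CSA mouse 03, without which it was -0.27 with an adjusted p of 0.157. It passed at an adjusted p of 0.0486 without CSA mouse 01 and 0.0412 without CSA mouse 02. Against CSS, Erbb2 was lower in CSA by 1.95-fold in group means, at a log2 fold change of -0.98 (SE 0.23, adjusted p = 0.00448 by limma).

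Erbb3, a receptor for neuregulins with little kinase activity of its own, was among the lowest receptors, at 1.22, 0.684 and 0.945 FPKM in CFS, 0.429, 0.637 and 0.466 in CSS, 0.382, 0.486 and 0.627 in CFA, and 0.942, 0.635 and 1.06 in CSA. These values rest on 48 to 136 fragments per library. The CSS mice lay below the CFS mice, and the CSA mice above the CFA mice, so that the genotypes were ordered in opposite directions under saline and Ang II. Without the filter on low values, the log2 difference was 0.71 in CSA against CFA (adjusted p = 0.136) and -0.77 in CSS against CFS (adjusted p = 0.864), and the interaction was 1.47 (adjusted p = 0.0484 by limma over all genes above 0 in at least 1 library). Erbb3 is also made by Schwann cells, and 8 Schwann cell markers summed to 16.6 to 35.1 FPKM in CFS, 13.3 to 31.4 in CSS, 16.5 to 20.2 in CFA and 24.1 to 28.0 in CSA. The highest sums of the saline groups were those of CFS mouse 68 and CSS mouse 55, which also had the highest Erbb3 of their groups. In CFA the sums had the same order as Erbb3. In CSA the highest sum was 28.0 FPKM in mouse 01, while mouse 03, at 26.2 FPKM, had the highest Erbb3. Of 7 markers tested in CSA against CFA, 1 was higher and 1 lower by adjusted p, with Mag at 0 in CFA mouse 74 and CSA mouse 03. The part of these cells in the result was not tested.

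Erbb4, which binds neuregulins, HB-EGF, betacellulin and epiregulin, stood at 1.08, 1.34 and 1.25 FPKM in CFS, 1.13, 1.21 and 1.17 in CSS, 1.56, 1.38 and 0.802 in CFA, and 0.0957, 0.137 and 0.264 in CSA. The 9 other mice were close together and every CSA mouse was far below them, with 24 to 50 fragments per library against 210 to 419 in CFA. Erbb4 was 7.51-fold lower in CSA than in CFA by group means, at a log2 fold change of -2.34 (SE 0.33, adjusted p = 0.0002 by limma). The pseudocount of 0.1 is close to the CSA values, and a pseudocount of 1 gave a log2 fold change of -0.93, below the fold limit, with the adjusted p still under 0.05. The interaction was -2.28 (SE 0.46, adjusted p = 0.00422 by limma).

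Summed over the 4 receptors, the level was 13.4 ± 1.18 FPKM (SD, n = 3) in CFA and 15.5 ± 2.17 in CSA, with an exact permutation p of 0.2, two-sided. The mix of receptors differed as follows. Egfr made up 46.4 ± 1.54% of it in CFA and 68 ± 9.74% in CSA, and Erbb2 40.5 ± 1.16% and 25.3 ± 10.4%. For both shares the 3 CSA mice did not overlap the 3 CFA mice (p = 0.1 by an exact permutation test, two-sided, which 3 against 3 cannot go below). CSA mouse 03 was furthest from CFA, at 79.2% for Egfr and 13.4% for Erbb2, while CSA mice 01 and 02 were at 63.1% and 61.7% for Egfr. These shares were chosen after the data were seen.

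Among the ligands, Btc, which encodes betacellulin, showed the largest fitted change of the 7 tested members between CSA and CFA. It was at 6.50, 6.17 and 4.19 FPKM in CFS, 3.30, 5.16 and 3.99 in CSS, 5.40, 3.07 and 6.80 in CFA, and 0.261, 0.125 and 0.592 in CSA. The 9 mice of the other groups overlapped and all 3 CSA mice were below them, with 12 to 41 fragments per library against 294 to 652 in CFA. The group mean was 15.6-fold lower in CSA than in CFA, and the log2 fold change was -3.69 (SE 0.41, adjusted p = 4.11e-05 by limma). With a pseudocount of 1 it was -2.16, still past the fold limit. It was -4.11 without CSA mouse 03, the highest CSA mouse, and -3.30 without CSA mouse 02, the lowest. The genotype difference under saline was -0.43 (95% interval -1.32 to 0.47), and the interaction was -3.26 (SE 0.57, adjusted p = 0.00197 by limma).

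Tgfa, which encodes the EGFR ligand TGF-α, was at 2.30, 0.692 and 1.71 FPKM in CFS, 2.24, 1.78 and 2.24 in CSS, 1.85, 1.27 and 2.48 in CFA, and 0.455, 0.451 and 0.0905 in CSA. The CSA mice were lowest, although CFS mouse 69 came close to them. Its group mean was 5.62-fold lower in CSA than in CFA, at a log2 fold change of -2.30 (SE 0.49, adjusted p = 0.00342 by limma). CSA mouse 03, the shallowest library, held 9 fragments of Tgfa. A pseudocount of 1 gave a log2 fold change of -1.10, below the fold limit, with the adjusted p still under 0.05. The interaction was -2.82 (SE 0.70, adjusted p = 0.0124 by limma).

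The 250 bases before the annotated start of the 3 genes that were differentially expressed in CSA against CFA are shown because these genes fell together, with Egfr, which moved the other way, for comparison. RefSeq sequences (GRCm38.p6) were at hand for 6 of the 10 members. Capitals mark matches, on either strand, to the motifs searched, and the lines read 5′ to 3′ on the strand of the gene.
Erbb4: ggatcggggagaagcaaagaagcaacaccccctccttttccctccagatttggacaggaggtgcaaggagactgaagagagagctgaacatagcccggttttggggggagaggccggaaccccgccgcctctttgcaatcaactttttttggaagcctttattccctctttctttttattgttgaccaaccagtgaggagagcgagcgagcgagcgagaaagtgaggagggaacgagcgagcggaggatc
Btc: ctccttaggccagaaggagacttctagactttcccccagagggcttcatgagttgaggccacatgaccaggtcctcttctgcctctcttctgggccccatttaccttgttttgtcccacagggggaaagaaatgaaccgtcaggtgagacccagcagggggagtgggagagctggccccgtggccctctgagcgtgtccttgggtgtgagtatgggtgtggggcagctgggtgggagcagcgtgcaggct
Tgfa: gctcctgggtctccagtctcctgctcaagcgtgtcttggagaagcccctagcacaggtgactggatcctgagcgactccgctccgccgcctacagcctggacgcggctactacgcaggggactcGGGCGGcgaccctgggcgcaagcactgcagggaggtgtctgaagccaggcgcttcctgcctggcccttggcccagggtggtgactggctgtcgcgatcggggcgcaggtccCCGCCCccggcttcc
Egfr: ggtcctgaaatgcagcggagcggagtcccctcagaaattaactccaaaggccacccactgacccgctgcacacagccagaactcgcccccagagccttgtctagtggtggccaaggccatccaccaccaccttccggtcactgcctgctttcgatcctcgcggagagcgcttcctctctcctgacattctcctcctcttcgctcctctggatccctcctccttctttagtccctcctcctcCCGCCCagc
The windows are chr1:69108060-69108309 (minus strand) for Erbb4, chr5:91402995-91403244 (minus) for Btc, chr6:86194972-86195221 (plus) for Tgfa and chr11:16751953-16752202 (plus) for Egfr.

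The motifs searched were the AP-1 site TGANTCA, the CArG box by name, the TEAD site GGAATG, the GC box GGGCGG, the TATA box TATAAA and the CRE TGACGTCA, the last chosen after the windows were seen. Over windows of equal length before 32851 genes, 6.75% held the AP-1 site, 1.47% the CArG box, 12.6% the TEAD site, 32.7% the GC box, 12.4% the TATA box and 1.55% the CRE. The Tgfa window held 2 GC boxes and the Egfr window 1, and the windows of Erbb4 and Btc held no match to any of the 6. Their GC content was 54% for Erbb4, 59.6% for Btc, 69.2% for Tgfa and 60.8% for Egfr. Of the members without a printed window, Areg held a CRE, a GC box and a TATA box, and Erbb2 held 1 TEAD site. A match or its absence describes these letters in these windows.

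Hbegf, the ligand with the highest level in CFS, CSS and CFA, was at 13.5, 15.8 and 10.7 FPKM in CFS, 28.2, 20.4 and 28.6 in CSS, 14.9, 28.1 and 10.6 in CFA, and 8.12, 5.74 and 5.55 in CSA. The CSS mice were above the CFS mice and the CSA mice below all others, while CFA mouse 72 stood apart from the other CFA mice at the level of CSS. Under Ang II its group mean was 2.76-fold lower in CSA than in CFA, at a log2 fold change of -1.36 (SE 0.32, adjusted p = 0.00554 by limma). That value was -0.97 without CFA mouse 72, -1.67 without CFA mouse 74 and -1.53 without CSA mouse 01, and the last 2 pass the fold limit. Under saline its group mean was 1.93-fold higher in CSS than in CFS, with a log2 difference of 0.94 (95% interval 0.24 to 1.64), an unadjusted p of 0.0128 and an adjusted p of 0.608 by limma. The interaction was -2.30 (SE 0.45, adjusted p = 0.00346 by limma).

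Beside the lower levels of Erbb4, Btc, Tgfa and Hbegf in CSA, the 8 SMC markers differed between CSA and CFA by a median of -3.19 on the log2 scale, from -4.28 to -2.28. Endothelial markers summed to 198 to 429 FPKM in CFA and 112 to 142 in CSA, and of 7 such markers 1 was higher and 3 were lower. In CFS they summed to 396 and 391 FPKM in mice 68 and 70 and to 93 in mouse 69, which had the lowest Tgfa of the CFS mice and not the lowest Btc, Erbb4 or Hbegf. In CFA they summed to 307, 198 and 429 FPKM in mice 71, 72 and 74, and Btc and Tgfa had the same order. Hbegf had the reverse order there, and Erbb4 was lowest in mouse 74. In CSS and CSA neither Btc nor Tgfa followed the order of the endothelial sums. The SMC marker sums had the same order as Hbegf within CFS, CSS and CFA, and not within CSA. Btc, Tgfa and Erbb4 followed the order of the SMC sums in none of the groups, although Erbb4 and the SMC sum were both lowest in CFA mouse 74. The adipocyte markers summed to 89.7 to 258 FPKM in CFA and 55.1 to 95.9 in CSA, with 2 of 6 lower and Lep at 0 in CSA mouse 03. The part of these cell types in the lower levels was not tested.

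Ereg, which encodes epiregulin, a ligand of EGFR and ErbB4, was at 1.82, 2.37 and 2.15 FPKM in CFS, 2.41, 3.56 and 3.17 in CSS, 2.71, 4.71 and 1.60 in CFA, and 5.07, 4.66 and 6.73 in CSA. The CSA mice were high, but CFA mouse 72 lay within their range. Between CSA and CFA the log2 fold change was 0.96 (SE 0.32, adjusted p = 0.0357 by limma), a 1.82-fold difference in group means. Without CFA mouse 74 the log2 fold change was 0.58 with an adjusted p of 0.129, and without CSA mouse 03 it was 0.80 with an adjusted p of 0.0878. Without CFA mouse 71 or CSA mouse 01 it was 0.95 and 1.003, with adjusted p-values of 0.0843 and 0.0593. Without the CFS mouse 68 and CSS mouse 55 libraries, which enter this difference only through the shared estimate of spread, the adjusted p was 0.0605. Of the exonic bases of Ereg, 3.42% are shared with the annotated gene Gm19610. The interaction for Ereg was 0.46 (95% interval -0.55 to 1.47, adjusted p = 0.506 by limma).

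Areg, which encodes amphiregulin, was at 0 in the 3 CFS mice, 0.0444 FPKM in CSS mouse 55 and 0.0378 in CFA mouse 71, each from 1 fragment, and 0 in the other CSS and CFA mice. In CSA it was at 0.608 FPKM in mouse 01 and 0.349 in mouse 02, from 15 and 9 fragments, and at 0 in mouse 03, where 3 fragments would have been 0.161 FPKM. Such low values allow no comparison of levels beyond these counts. Without the filter the log2 difference between CSA and CFA was 1.51 with an adjusted p of 0.0975 by limma.

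Nrg1, the neuregulin that binds ErbB3 and ErbB4, was at 0.0523, 0 and 0.0504 FPKM in CFS, 0.0312, 0.0365 and 0 in CSS, 0.248, 0.196 and 0.00912 in CFA, and 0.514, 0.770 and 0.586 in CSA. The CSA mice were above all others, on 93 to 169 fragments per library, and CFA mouse 74 stayed at the saline level with 2 fragments. It never reached 1 FPKM, and without the filter CSA differed by 1.68 on the log2 scale from CFA (adjusted p = 0.0213) and by 2.56 from CSS (adjusted p = 0.00147 by limma). Both differences pass the fold limit, so that without the filter 4 members, in place of 3, were differentially expressed in CSA against CFA and 5, in place of 4, in CSA against CSS. Of its exonic bases, 4.66% are shared with the annotated gene Gm26578.

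Beside the levels of Egfr, Ereg and Nrg1 in CSA, 8 macrophage markers summed to 287 to 585 FPKM in CFA and 1944 to 2085 in CSA, and 8 of 8 had an adjusted p under 0.05. The highest CFA value, 585 FPKM, was that of mouse 72, which was the highest CFA mouse for Ereg and Egfr and not for Nrg1. In CSA, mouse 03 had the lowest macrophage sum and the highest Egfr and Ereg. It was lowest of the CSA mice for C1qa, Cd14 and Csf1r, highest for Lyz2, Fcgr1 and Mrc1, and between the others for Cd68 and Adgre1. Of the fibroblast markers, it was highest for Pdgfra, Dcn and Lum, lowest for Dpt and Pi16, and between the others for Col1a1. Fibroblast markers summed to 2204 to 2428 FPKM in CFA and 3559 to 4248 in CSA, with 2 of 6 higher and 2 lower by adjusted p. Of 6 neutrophil markers 5 were tested and higher, of which Cxcr2 and Retnlg passed the filter only through the CSA mice, and Ly6g was at 0 in CSA mice 02 and 03. The 6 T cell markers were at or below 0.650 FPKM in every mouse outside CSA and from 1.18 to 5.89 FPKM in CSA, so their calls as higher follow from the filter. Of 7 epithelial and mesothelial markers 2 were tested and 1, Cdh1, was higher, having passed the filter only through the CSA mice, and Upk3b and Msln were at 0 in CSA mouse 03. The part of these cell types in these levels was not tested.

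Ereg, Areg and Btc lie next to each other in a stretch of 328 kb on chromosome 5, from 91074622 to 91402994 (GRCm38/mm10). Within it, Ereg and Areg are on the plus strand and Btc on the minus strand. Areg, which was not tested, lies between Ereg and Btc. At the ends of the stretch, Ereg was higher and Btc lower in CSA than in CFA. The other members are scattered, with Egfr at chr11:16752203-16918158 and Erbb2 at chr11:98412470-98437716 on the same chromosome, Erbb3 at chr10:128567523-128589652, Erbb4 at chr1:68032186-69108059, Tgfa at chr6:86195223-86275719, Nrg1 at chr8:31814551-32884029 and Hbegf at chr18:36504927-36515805. All 10 are annotated as protein-coding. Epgn, a further ligand gene on chromosome 5, stayed at or below 0.354 FPKM.

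The summed level of the 6 ligands was 22.7 ± 3.37 FPKM (SD, n = 3) in CFS, 35.0 ± 3.64 in CSS, 28.0 ± 8.30 in CFA and 13.6 ± 1.47 in CSA. The CSA mice, at 12.1 to 15.02 FPKM, lay below the CFA mice, at 21.5 to 37.4 (p = 0.1 by the exact permutation test, which is its lower limit). Hbegf made up 61.3 ± 13.1% of the sum in CFA and 47.5 ± 6.52% in CSA, and these shares overlapped (exact permutation p = 0.2). Btc made up 20.4 ± 11.8% in CFA and 2.38 ± 1.76% in CSA. Ereg made up 10.3 ± 2.63% in CFA and 40.7 ± 8.17% in CSA, with every CSA mouse at 33.8% or more and every CFA mouse at 12.6% or less (exact permutation p = 0.1). A share changes when any other ligand changes, and it does not depend on how libraries are scaled.

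**Figure D2:**
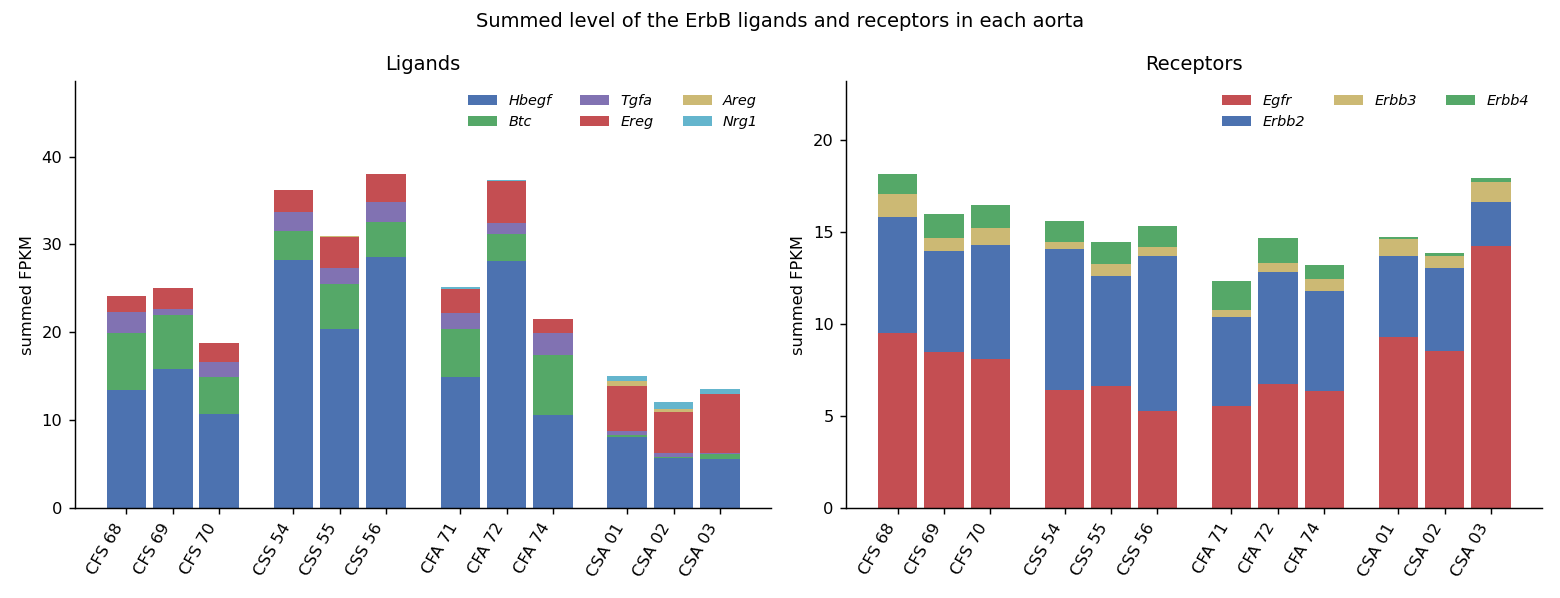
Summed FPKM of the 6 ligands (left) and the 4 receptors (right) in each of the 12 mice, as stacked bars from 0 with 1 colour per gene. In CSA the ligand bars are lowest, at 12.1 to 15.02 FPKM, and hold mostly Hbegf and Ereg. The receptor bars are at 13.8 to 18.0 FPKM in CSA and 12.3 to 14.7 in CFA, and Egfr makes up a larger share of them in CSA.

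The order of levels also differed. Hbegf ranked first in CFS, CSS and CFA and Egfr first in CSA, and in each case the first did not overlap the second. In CSA the next were Hbegf and Ereg, which overlapped, and then Erbb2 at 3.78 ± 1.19 FPKM (SD, n = 3). Tgfa, Btc, Areg and Erbb4 closed the order in CSA at 0.166 to 0.332 FPKM, and each overlapped its neighbour. In CFA, Egfr, Erbb2, Btc, Ereg, Tgfa and Erbb4 formed a chain from 6.23 to 1.25 FPKM in which each overlapped the next.

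Under saline, 0 of 7 tested members were differentially expressed in CSS against CFS, beside 0.0136% of all tested genes, and 0 had an adjusted p under 0.05, beside 0.0204%. Egfr and Hbegf were the 2 members with an unadjusted p under 0.05 in this limma fit, beside 6.3% of all tested genes, and limma-voom on fragment counts also called 0. For Ang II in CCN2fl/fl mice, CFA against CFS, 0 of 7 were differentially expressed, beside 0.0273%, and 0 had an adjusted p under 0.05, beside 0.0341%. Egfr alone had an unadjusted p under 0.05 there, beside 9.42% of all tested genes, at a log2 difference of -0.48 (95% interval -0.89 to -0.06, adjusted p = 0.443 by limma), and limma-voom called 0. The interval for Hbegf in CFA against CFS ran from -0.38 to 1.02 on the log2 scale, and that for Btc from -1.08 to 0.71.

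In CCN2SMC∆ mice, 4 members were differentially expressed and lower in CSA than in CSS, beside 20.3% of all tested genes. These were Hbegf at a log2 fold change of -1.98, Btc at -3.45, Tgfa at -2.49 and Erbb4 at -2.30, with adjusted p-values of 0.000413, 4.7e-05, 0.00175 and 0.000173 by limma. With Egfr, higher at 0.77, and Erbb2, 6 members had an adjusted p under 0.05, beside 46.2%. Ereg had a log2 fold change of 0.83 and an adjusted p of 0.0569, which moved to 0.0168 to 0.0431 in 6 of 21 alternatives. For the interaction, 4 members (Erbb4, Hbegf, Btc and Tgfa) passed both limits, beside 15.2% of all tested genes, and 5 had an adjusted p under 0.05, beside 26.4%, the fifth being Egfr.

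**Figure D3:**
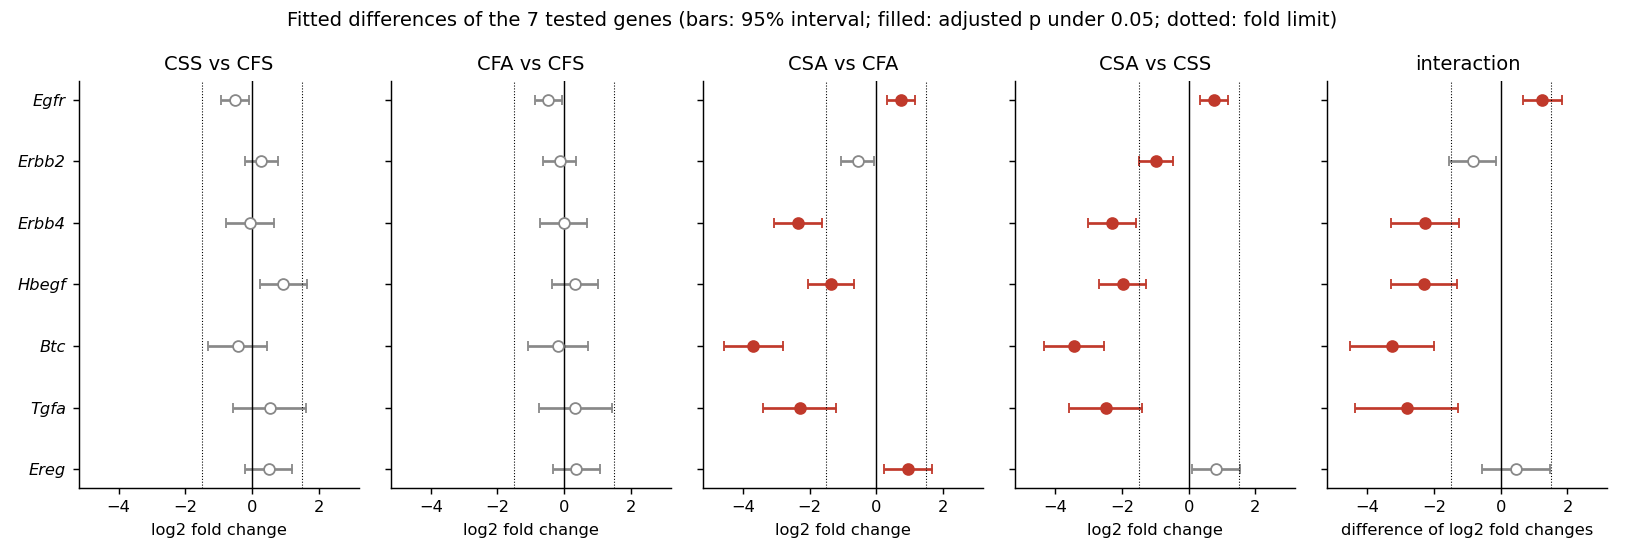
Fitted log2 fold changes of the 7 tested members in 4 comparisons and the interaction, on 1 shared axis. Points are limma estimates, bars 95% intervals, filled points have an adjusted p under 0.05, and dotted lines mark a log2 fold change of 1.5 in either direction; under saline and in CFA against CFS all points are open.

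Other genes of the pathway were taken from lists of 62 genes. Of 11 tested genes for ligand shedding, 5 were higher and 1 lower in CSA than in CFA by adjusted p, beside 40.7% of all tested genes called in either direction, with a median of 0.39 on the log2 scale beside -0.04 over all tested genes. Adam8 and Adam12, metalloproteases of the ADAM family, were the 2 of these 11 genes that were differentially expressed, beside 17.2% of all tested genes. Both passed the filter only through the CSA mice. Adam8, also a gene of myeloid cells, went from 1.81 ± 1.82 FPKM (SD, n = 3) to 27.9 ± 11.98, and Adam12 from 1.32 ± 1.15 to 11.3 ± 0.742. Their log2 fold changes were 4.18 (SE 0.58, adjusted p = 0.0002 by limma) and 3.29 (SE 0.52, adjusted p = 0.000497). Adam17, a sheddase of several ErbB ligands, went from 9.22 to 18.4 FPKM in group means, a log2 fold change of 0.97 (adjusted p = 0.000471 by limma) under the fold limit. Adam19 and Adam9 were also higher by adjusted p, at 1.19 and 0.50, and Bace1 was lower, at -0.66. Adam10, also of this list, had a log2 fold change of 0.39 (adjusted p = 0.326 by limma).

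Of 18 tested negative regulators, 6 were higher and 4 lower by adjusted p, beside 40.7% of all tested genes in either direction, with a median of -0.12. Dusp5 and Dusp6, phosphatases that remove phosphate from ERK and are themselves induced by ERK signalling, were the 2 of these 18 genes that were differentially expressed, a smaller share than the 17.2% of all tested genes. Dusp6 was at 9.88 ± 0.912 FPKM (SD, n = 3) in CFA and 34.5 ± 4.40 in CSA, a log2 fold change of 1.79 (SE 0.15, adjusted p = 7.08e-06 by limma), and Dusp5 at 1.78 ± 0.857 and 11.5 ± 4.27, a log2 fold change of 2.67 (SE 0.51, adjusted p = 0.00157). Spred1 and Spry2, inhibitors of Ras-MAPK signalling, were higher and Spry4 and Spred2 of those families were lower, at log2 fold changes of 0.77, 0.63, -0.76 and -0.50.

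Of 28 tested adaptors and effectors, 4 were higher and 4 lower by adjusted p, beside 40.7% of all tested genes in either direction, and 0 were differentially expressed, beside 17.2%. The median was -0.27. Nras, a Ras GTPase, was highest, at 0.81. Of 5 further ErbB ligands none was tested. Egf, Nrg2 and Nrg3 stayed at or below 0.398 FPKM, and Nrg4 ranged from 0.227 to 1.93 FPKM. In CSS against CFS and in CFA against CFS, 0 genes of the 3 tested lists had an adjusted p under 0.05 by limma or limma-voom. At an unadjusted p under 0.05 limma gave 0, 2 and 1 under saline and 1, 1 and 1 for Ang II, in the order of shedding, negative regulators, and adaptors and effectors, beside 6.3% and 9.42% of all tested genes. These were Dusp5, Errfi1 and Pik3r1 under saline, and Adam8, Errfi1 and Pik3r1 for Ang II. Errfi1 was at 121 to 253 FPKM in CFS and at or below 75.2 in every other mouse. Its log2 differences were -1.84 in CSS against CFS (adjusted p = 0.333 by limma) and -1.88 in CFA against CFS (adjusted p = 0.149).

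**Figure D4:**
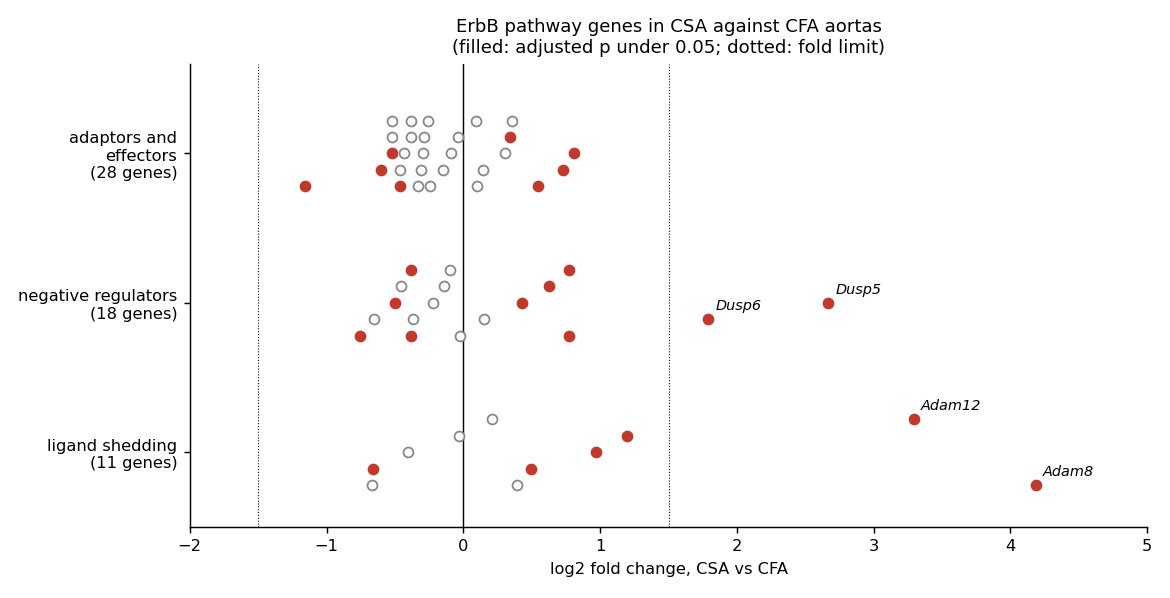
Log2 fold change in CSA against CFA of the tested genes of 3 pathway lists, 1 point per gene, with genes spread vertically only for legibility. Filled points have an adjusted p under 0.05 and dotted lines mark the fold limit; Adam8, Adam12, Dusp5 and Dusp6 lie past it.

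Over the 12 libraries, each member's closest partners were sought among tested genes of at least 1 FPKM on average, by Pearson's r of log2(FPKM + 0.1), as a description without a test. All points share the contrast of CSA with the rest. Erbb4 was closest to Msrb3 (r = 0.991) and Dstn (0.990), Btc to Trmt2b (0.992) and Bbs7 (0.989), and Tgfa to Prrt4 (0.993) and Hid1 (0.985). Hbegf was closest to Gdf10 (0.965) and Mast2 (0.958), and Ereg to Egr2 (0.952) and Loxl4 (0.946). For Egfr the closest were Tgs1 (0.937) and Tbc1d5 (0.929), and for Erbb2 Ifrd2 (0.972) and Hdac5 (0.966). Among the members themselves, Erbb4 and Btc had an r of 0.937 and Egfr and Tgfa one of -0.803.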

How the data were processed

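The data are RNA-Seq libraries of 12 mouse abdominal aortas, 3 in each of 4 groups, grouped by the sample labels. The authors deposited FPKM, 1 value per gene and mouse without pooling, from poly(A) libraries sequenced as 150 bp paired ends. The submitters' processing notes name mm10, HISAT2 2.0.5, StringTie 1.3.3b and featureCounts 1.5.0-p3, and the study's own test was DEG-Seq. The annotation was not given in the sources used here, so GENCODE M21 supplied symbols and exon lengths. With these, 98.1% to 98.5% of the values under 100 fragments were whole within 0.05, and the summed fragments gave the depth, 14558580 to 23107807 per mouse. Its limits cover counting error only. Strand use in counting is not stated, so reads shared with overlapping genes cannot be told apart.

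limma 3.58.1, run in R 4.3.3, was applied to log2(FPKM + 0.1) (eBayes with trend and robust), 1 coefficient per group, without covariates, over 14676 genes with at least 1 FPKM in at least 3 libraries. Fold changes on this scale understate low genes. P-values were adjusted by Benjamini-Hochberg within each comparison. The script was tested on simulated data. Shares were compared with two-sided exact permutation tests. Tables were written with pandas 2.3.3 and numpy 2.4.6 under Python 3.11.15, and figures with matplotlib 3.10.9. Alternatives covered the pseudocount, the filter, scaling, the eBayes settings, the samples fitted, limma-voom on recovered fragments, and leaving out each library.

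The members and gene lists were chosen with earlier results of these data known. All 10 members are named, with the 3 differentially expressed genes of largest change per other list and the 2 genes most correlated with each tested member. Adam17 and the shedding genes named after it, Errfi1, the Spry, Spred and effector genes, and the shares of summed levels were added after their values were seen. Nrdc was matched by its older symbol, Nrd1.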

Additional observations from a re-analysis of the deposited data

Results flagged for a closer look

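The genotype effect, CCN2SMC∆ against CCN2fl/fl, differed between Ang II and saline for 5 of the 7 tested members by the interaction term of the limma fit, on the log2 scale. It was 1.24 for Egfr, which was higher in CSA than in CFA and lower, without passing the test, in CSS than in CFS. It was -2.30 for Hbegf, where the CSS mice lay above the CFS mice and the CSA mice below the CFA mice. Erbb4 at -2.28, Btc at -3.26 and Tgfa at -2.82 had genotype intervals under saline that include 0 and were lower in CSA under Ang II.

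Erbb3, with a mean of 0.880 FPKM in CSA, was below the filter. Its CSS mice lay below the CFS mice and its CSA mice above the CFA mice. The difference between these effects was not tested among the filtered genes, and the fit without a filter gave an adjusted p of 0.0484 for it.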

How the results depend on the processing

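With the fold limit dropped, 6 members were called in CSA against CFA in place of 3. A pseudocount of 1 left 1 call there (Btc), 2 in CSA against CSS and 2 in the interaction (Btc and Hbegf in each). Without the filter, Nrg1 was added as a higher call, giving 4 in CSA against CFA and 5 in CSA against CSS. Directions reversed on leaving out 1 library in differences that did not pass the test: the log2 difference ranged from -0.14 to 0.00268 for Erbb4 in CSS against CFS, and in CFA against CFS from -0.19 to 0.25 for Erbb4, -0.0653 to 0.63 for Hbegf, -0.00985 to 0.74 for Ereg, -0.43 to 0.13 for Btc and -0.13 to 0.67 for Tgfa. Without CFA mouse 72 the signs of Hbegf, Ereg and Btc turned, without CFS mouse 69 those of Erbb4 and Tgfa, and without CFA mouse 74 that of Erbb4. The cause was not tested. In CSA against CFA, Btc, Tgfa, Erbb4 and Hbegf kept an adjusted p under 0.05 in every alternative that gave them a value, Egfr lost it in 1 of 21 and Ereg in 7 of 21. A filter on a mean of 1 FPKM removed Erbb4, so that alternative has no value for it. No paired analysis was possible because the groups share no mouse numbers. Depth limits Areg, Nrg1 and the CSA values of Btc, Tgfa and Erbb4. With 3 mice per group, an exact permutation test cannot go below 0.1.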
